A study of Mus musculus with 6 samples.

Results

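The 9 late genes of light detection, Opn1sw, Gnat1, Gnat2, Gngt2, Pde6b, Pde6h, Rcvrn, Rbp3 and Aipl1, were followed through the accessible chromatin of mouse embryonic retina at E14.5 (embryonic day), before rods mature. They are 9 of 21883 protein-coding genes, listed by name. An ATAC-seq peak was assigned to a gene when its summit lay in the gene, or when the nearest gene end within 100 kb was the gene's own (GRCm38), so that a peak can have more than 1 gene. ATAC-seq marks open DNA by where the Tn5 transposase inserts adapters. Peaks were read from 8 lists: 1 for each of 6 libraries, and 2 longer lists, called joint here, that the authors named for a genotype.

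All embryos were C57BL/6 and aged E14.5. The 3 wild-type libraries were Atoh7 +/+ and the 3 SE/SE libraries came from homozygotes for a mutant Atoh7 shadow enhancer, an additional element of the gene, and each library held the retinal pair of an individual animal. Atoh7 encodes a transcription factor needed for retinal ganglion cells, and the study asks which open regions change when this enhancer is mutated. Wild-type lists held 27873 to 34797 peaks, SE/SE lists 39115 to 44242, and the joint lists 104991 (wild type) and 120772 (SE/SE). Read depth is unknown, and wild-type libraries had 17 to 19 PCR cycles against 15 to 16 in SE/SE, so genotype, list length and amplification cannot be told apart. As a check of the tissue, all 8 markers of neural retina had a peak in 6 of 6 libraries. For markers of adjoining tissue this held for 6 of 8 pigment epithelium, 2 of 5 lens and 2 of 5 endothelial genes, against 62.8% of all protein-coding genes. The part of such cells in the results was not tested.

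In a photoreceptor, light changes an opsin, which activates the G protein transducin, and transducin releases the phosphodiesterase PDE6 from its inhibitory subunits so that it breaks down cyclic GMP and cation channels close. Rods and cones use different copies of most of these proteins. At this age cones are being born and most rods are still to come, and the homeodomain factors Otx2 and Crx switch on photoreceptor genes, many of them through TAATCC or related letters near the start.

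Promoter sequences are shown for 4 of the genes because they differ in where a peak was found at the start. Rbp3 had a peak over its start in both joint lists, Gnat2 in the joint SE/SE list alone and Opn1sw in no list, and Aipl1 had one nearby in both joint lists. Each runs from 250 bases before to 50 after the RefSeq start (GRCm38.p6), 5′ to 3′ on the gene's strand. Capitals mark TAATCC or TAAGCC on either strand, so that they read GGATTA or GGCTTA where the letters lie on the other strand. They are chr14:33953753-33954052 (plus strand) for Rbp3, chr3:108092816-108093115 (plus) for Gnat2, chr6:29380464-29380763 (minus) for Opn1sw and chr11:72037460-72037759 (minus) for Aipl1.
Rbp3: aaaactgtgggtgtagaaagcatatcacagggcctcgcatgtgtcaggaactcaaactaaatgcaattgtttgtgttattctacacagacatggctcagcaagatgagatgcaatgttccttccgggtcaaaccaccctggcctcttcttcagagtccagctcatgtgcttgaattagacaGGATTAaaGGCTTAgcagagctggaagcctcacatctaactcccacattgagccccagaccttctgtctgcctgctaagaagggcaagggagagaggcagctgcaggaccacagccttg
Gnat2: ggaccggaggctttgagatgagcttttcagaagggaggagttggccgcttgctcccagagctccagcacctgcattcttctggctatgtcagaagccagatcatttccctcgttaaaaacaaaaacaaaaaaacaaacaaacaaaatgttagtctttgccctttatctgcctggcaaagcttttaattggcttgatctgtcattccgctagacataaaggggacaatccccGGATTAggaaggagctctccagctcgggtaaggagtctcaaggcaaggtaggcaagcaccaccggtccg
Opn1sw: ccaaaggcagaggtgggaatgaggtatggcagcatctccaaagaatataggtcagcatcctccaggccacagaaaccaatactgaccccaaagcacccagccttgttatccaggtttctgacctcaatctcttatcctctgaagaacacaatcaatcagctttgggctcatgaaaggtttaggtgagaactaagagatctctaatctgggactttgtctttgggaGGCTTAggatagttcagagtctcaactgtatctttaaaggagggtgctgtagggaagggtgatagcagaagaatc
Aipl1: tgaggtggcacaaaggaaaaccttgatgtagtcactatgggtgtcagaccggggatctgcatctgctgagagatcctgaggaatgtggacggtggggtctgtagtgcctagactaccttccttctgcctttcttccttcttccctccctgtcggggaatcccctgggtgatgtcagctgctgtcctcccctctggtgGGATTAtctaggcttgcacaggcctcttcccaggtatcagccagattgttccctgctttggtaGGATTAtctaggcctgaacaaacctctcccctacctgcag

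The letters TAATCC stood in 3 of the 6 member promoters that RefSeq's table holds (Gnat2, Rbp3 and Aipl1), against 7.06% of all 32851 promoters of the same length. TAAGCC stood in Opn1sw, Pde6h and Rbp3, against 9.48%. Either was found in 5 of 6, against 15.8%, the exception being Pde6b. Counted from the start, the first bases lay at -19 in Gnat2, at -25 in Opn1sw, at -69 and -61 in Rbp3, at -63 and -47 in Pde6h, and at -53 and 10 in Aipl1. Of other letters searched on both strands, TGCTGA was in 4 of 6 (19.5% of all promoters), CAGCTG in 3 (16.3%), CAGATG in 2 (17.2%), AGGTCA in 1 (16.3%), and GGGCGG (35.7%) and TATAAA (13.6%) in 0. These are matches of letters and not measured sites. Gnat1, Gngt2 and Rcvrn have no entry in the table.

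The promoters of 5 of these 6 genes held fewer CpG than the median promoter. Opn1sw had 0 CpG, Rbp3 2, Aipl1 3, Pde6b 4, Pde6h 5 and Gnat2 8, against a median of 7 over all promoters. Over the whole table, a peak overlapped the window in 6 of 6 libraries for 1.21% of promoters with 3 CpG or fewer, for 11.5% of those with 4 to 9 and for 81.8% of those with 10 or more. The first class holds Opn1sw, Rbp3 and Aipl1 and the second Pde6b, Pde6h and Gnat2.

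Most of the 9 genes had no peak in any single library. Gnat1 and Aipl1 had one in 6 of 6 libraries, Pde6b in SE/SE 3 alone, and the other 6 genes in none. Of those, Opn1sw, Gnat2, Pde6h and Rbp3 had peaks in both joint lists, Gngt2 in the joint SE/SE list alone, and Rcvrn in no list. Thus 3 of 9 genes had a library peak, against 72.4% of all protein-coding genes, and 2 of 9 had one in 6 of 6, against 62.8%. Peaks in joint lists only were found for 5 of 9 genes, against 10.4% of all genes. Of the 9, 1 had peaks in joint SE/SE but in no other list (1.57% of all genes), and none in any list for 1 of 9 (17.2%). In bulk tissue, fewer cells with open chromatin and less accessibility per cell cannot be told apart.

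**Figure D1:**
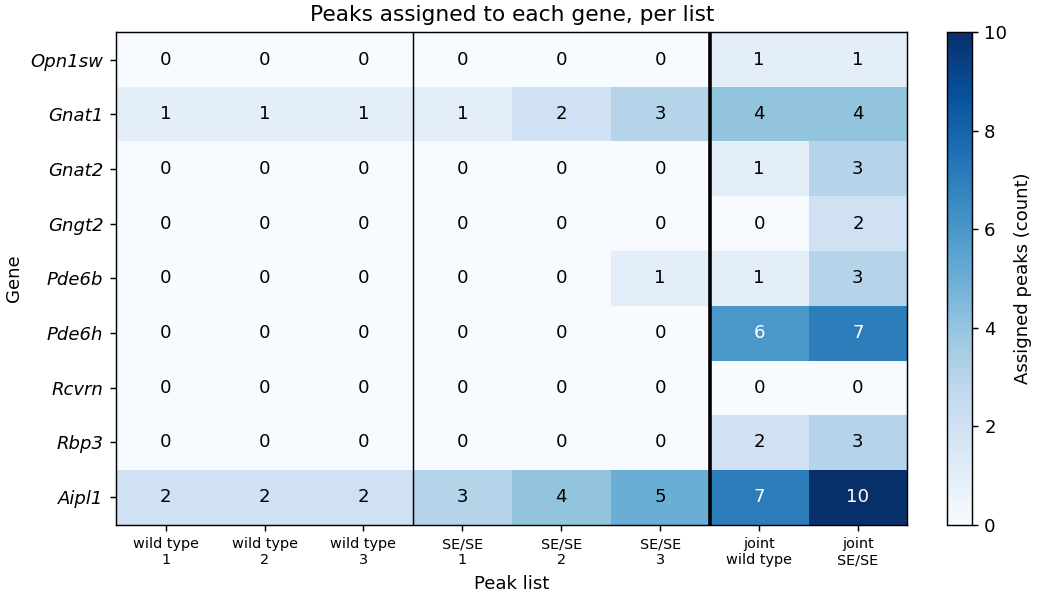
Number of peaks assigned to each of the 9 genes (rows) in each of the 8 peak lists (columns), with the colour scale giving the same count. Gnat1 and Aipl1 have peaks in every list, Pde6b in SE/SE 3 and the joint lists, Rcvrn in none, and the remaining genes in joint lists only.

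Opn1sw (gene ID 12057, chr6:29376671-29380513) encodes the short-wavelength cone opsin, the light receptor itself. It had 0 peaks in each of the 6 libraries and 1 in each joint list. That peak lay outside the gene, with its summit 7689 bp (joint wild type) or 7681 bp (joint SE/SE) from the start, at authors' signal values of 389 and 359. By percentile within its list it stood at 51.2 and 45.6, near the middle of each. The closest RefSeq gene of any kind was the tRNA gene n-TPagg6, so the link to Opn1sw comes from counting protein-coding genes only. In single libraries the nearest peak to the gene was 16071 to 16081 bp away, at an end of Ccdc136, in all 6.

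The alpha subunits of transducin differed from each other. Gnat1 (gene ID 14685, chr9:107674437-107679634), the rod form, had 1 peak in each wild-type library and 1, 2 and 3 in SE/SE 1, 2 and 3. The peak common to all lay inside the gene at chr9:107676034-107676251, taking the outer bounds over the libraries. Its signal value was 129, 157 and 94.3 in wild type 1, 2 and 3 and 227, 251 and 256 in SE/SE 1, 2 and 3. These values put it at percentiles 37.0, 41.1 and 29.7 of the wild-type lists and 48.4, 50.5 and 51.4 of the SE/SE lists. The groups did not overlap in either measure, and the same held for 89.0% (signal value) and 75.9% (percentile) of the 24370 regions with a peak in 6 of 6 libraries. Counted from the top of each list, the ranks overlapped: 19747, 20485 and 19603 in wild type and 20179, 21162 and 21481 in SE/SE. The 2 further regions were seen only in SE/SE libraries: chr9:107676361-107676470 in SE/SE 2 and 3, and chr9:107675702-107675819 in SE/SE 3. Both joint lists merged these into a single peak of 2825 (wild type) and 3854 (SE/SE), so the joint wild-type list covered these places too. The joint lists added weaker peaks inside the gene, 3 in wild type at 43.3, 403 and 133 and 3 in SE/SE at 107, 779 and 218.

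Gnat2 (gene ID 14686, chr3:108086788-108101432), the cone form, had 0 assigned peaks in the 6 libraries, 1 in the joint wild-type list and 3 in the joint SE/SE list. The peak in both joint lists had its summit 1289 or 1302 bp after the RefSeq start, with signal values of 183 and 530. In the joint SE/SE list alone, chr3:108093014-108093137 lay over the start printed above, with its summit at -2 bp from it and a signal value of 91.5 (percentile 20.6). The joint SE/SE list also held chr3:108092624-108092871, with its summit at -284 bp from the start and a signal value of 215. The lower-coordinate end of the gene had a peak in 6 of 6 libraries, but that end is 101 bp from Ampd2 and 6278 bp from the RefSeq start. The summits of those peaks were nearer to Ampd2 or Gm12500, so none was assigned to Gnat2.

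Gngt2 (gene ID 14710, chr11:95841772-95845734) encodes the gamma subunit of cone transducin. It had 0 peaks in 6 libraries, 0 in the joint wild-type list and 2 in the joint SE/SE list, both inside the gene. One, chr11:95843523-95843820, had a signal value of 451 (percentile 50.1) and the other, chr11:95842116-95842250, 51.6 (percentile 11.9). The second summit lay 298 bp from an end of Abi3, whose span overlaps Gngt2 and whose ends had a peak in 0 of 6 libraries and in both joint lists.

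Of the phosphodiesterase genes, Pde6b was seen in 1 library and Pde6h in none. Pde6b (gene ID 18587, chr5:108388373-108431743) encodes a catalytic subunit of the rod enzyme. It had 0 peaks in 5 libraries and 1 in SE/SE 3, at chr5:108427297-108427442, inside the gene and 4345 bp from its far end. That peak had a signal value of 30.8, at percentile 6.65 of its list, close to the lowest deposited value of 20. The joint lists had a peak at the same place of 558 (wild type) and 766 (SE/SE), so it was not confined to SE/SE. The joint SE/SE list alone added chr5:108387010-108387228, 1231 bp before the start, at 380, and chr5:108422184-108422322 inside the gene, at 53.1.

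Pde6h (gene ID 78600, chr6:136952218-136963485) encodes the inhibitory gamma subunit of the cone enzyme. It had 0 peaks in each library, 6 in the joint wild-type list and 7 in the joint SE/SE list. None lay inside the gene. A peak 5100 or 5104 bp from the gene, at signal values of 37.9 and 41.0, was almost as close to Arhgdib, 5219 and 5215 bp away. The others, 5 in wild type and 6 in SE/SE, formed a row 17149 to 32222 bp beyond the other end, where the long noncoding gene Gm30055 is the nearest RefSeq gene. Their signal values were 58.7 to 189 in the joint wild-type list and 101 to 329 in the joint SE/SE list. All peaks of Pde6h ranked below the middle of their list, the highest at percentile 43.9.

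Rcvrn (gene ID 19674, chr11:67695326-67703355) encodes recoverin, a calcium sensor that restrains the kinase of the opsin. It had no assigned peak in any of the 8 lists. The gene lies within the span of Glp2r, and the nearest summit was 18972 bp away in SE/SE 3 and the joint SE/SE list and 19027 bp away in the joint wild-type list. In SE/SE 1 and 2 it was 37432 and 37437 bp away, and in wild type 1, 2 and 3 it was 86775, 106304 and 106235 bp away. Each of these summits was nearest to an end of Glp2r.

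Rbp3 (gene ID 19661, chr14:33954003-33964219) encodes a retinoid carrier of the matrix between photoreceptors and pigment epithelium. It had 0 peaks in the 6 libraries, 2 in the joint wild-type list and 3 in the joint SE/SE list. The peak over the start printed above was chr14:33953864-33954091 in joint wild type, with its summit 8 bp after the start, and chr14:33953847-33954107 in joint SE/SE, with its summit at -3 bp. Its signal value was 294 and 667. A second peak inside the gene, at chr14:33959447-33959635 in joint wild type, had 424 and 648, and chr14:33952639-33952790 was in the joint SE/SE list alone at 97.4. All lay between percentiles 21.7 and 58.2, and the nearest library peaks were 8655 to 13764 bp away, nearest to an end of Zfp488.

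Aipl1 (gene ID 114230, chr11:72028717-72042460) encodes a co-chaperone that PDE6 needs to fold and assemble. It had 2 peaks in each wild-type library and 3, 4 and 5 in SE/SE 1, 2 and 3, so each SE/SE library lay above each wild-type library. It was the only gene of the 9 of which that held, against 11.0% of all genes. The counts include peaks outside the gene that lie nearer to noncoding genes, given below. In wild type 2 and 3 both peaks lay at the end that Aipl1 shares with Pimreg, while wild type 1 had the second outside the gene. The joint lists had 7 (wild type) and 10 (SE/SE).

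The strongest peaks of Aipl1 lay at an end that it shares. All 6 libraries had peaks within chr11:72041833-72042550, where the ends of Aipl1 and Pimreg are 32 bp apart and the spans overlap. The highest had signal values of 493, 430 and 411 in wild type 1, 2 and 3 and 630, 840 and 726 in SE/SE 1, 2 and 3. They stood at percentiles 62.1 to 66.9 and 69.9 to 74.7, while their ranks from the top overlapped, at 10370, 12953 and 10559 in wild type and 11762, 10790 and 12109 in SE/SE. Which of the genes these peaks belong to cannot be told apart. The RefSeq start of Aipl1, printed above, is 4951 bp from this end. The nearest peak to that start had its summit at -617 bp (wild type) or -622 bp (SE/SE) from it, was absent from all 6 libraries and had 450 (wild type) and 748 (SE/SE) in the joint lists.

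Away from the shared end, Aipl1 had 3 regions in some libraries. A region outside the gene, chr11:71996092-71996254, with summits 32548 to 32591 bp from it, had a peak in wild type 1 at 29.5 and in SE/SE 1, 2 and 3 at 58.5, 70.5 and 60.9. Regions chr11:72024529-72024688, outside the gene, and chr11:72029217-72029388, inside it, were in SE/SE 2 and 3 only, at 49.8 and 38.7 for the former and at 79.9 and 60.0 for the latter. The joint wild-type list held a peak at each of these 3 places, of 895, 567 and 811, and the joint SE/SE list one of 1189, 895 and 1019. The regions outside the gene lay nearer to noncoding RefSeq genes than to Aipl1. In the libraries, summits were 25607 to 25650 bp from Gm46262 in the former, and 1722 and 1746 bp from Gm23226 in the latter. The latter were 4138 and 4114 bp from Aipl1. Their link to Aipl1 thus comes from counting protein-coding genes only.

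**Figure D2:**
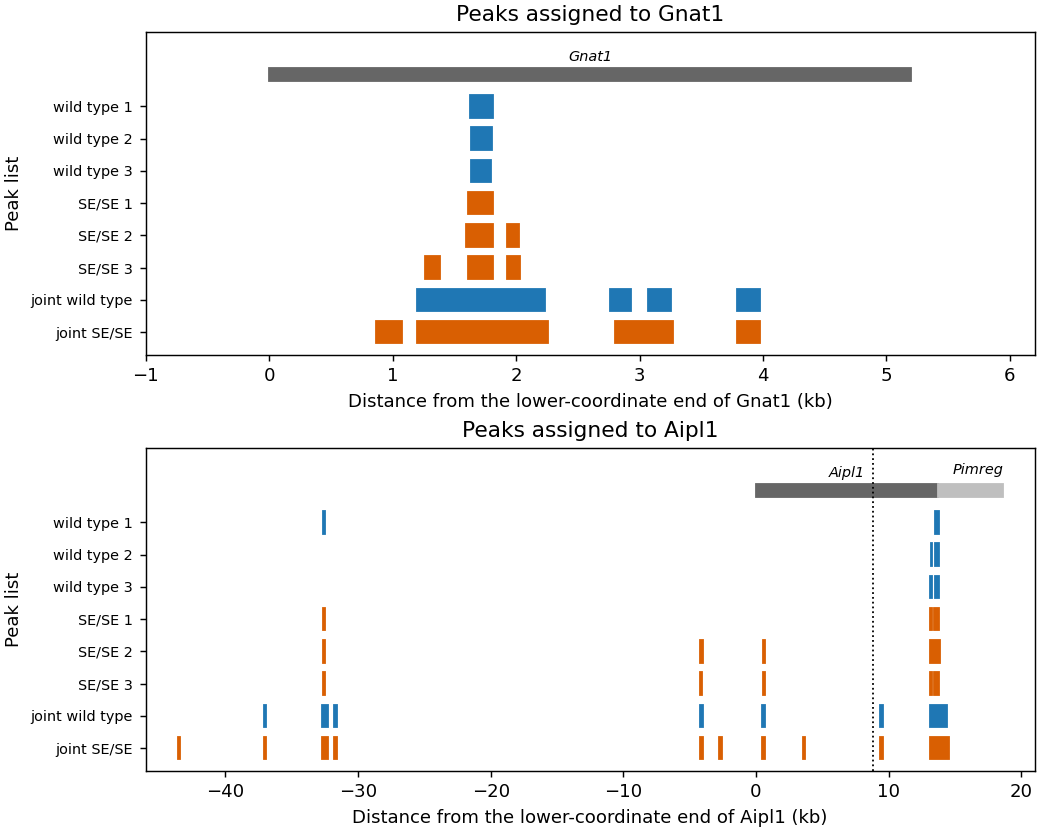
Position of every peak assigned to Gnat1 (top) and Aipl1 (bottom) in each of the 8 lists, as the distance in kb from the lower-coordinate end of the gene. Blue bars are wild-type and orange bars SE/SE peaks, dark grey bars the gene, the light grey bar Pimreg, and the dotted line the RefSeq start of Aipl1, which has no peak over it.

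Over the 9 genes, library peaks numbered 28 and joint peaks 55. A library of wild type 1, 2 and 3 held 3, 3 and 3 of these peaks and one of SE/SE 1, 2 and 3 held 4, 6 and 9, so the groups did not overlap. The means were 3 ± 0 and 6.33 ± 2.52 (SD, n = 3 each), a difference of 3.33 with an exact permutation p = 0.1 (two-sided), the smallest that 3 against 3 allows. Without SE/SE 3 the difference was 2. The lists differ in length: per 10000 peaks the values were 0.957, 0.862 and 1.08 in wild type and 1.02, 1.40 and 2.03 in SE/SE. These overlapped, with means of 0.965 ± 0.107 and 1.49 ± 0.511 (SD, n = 3 each) and an exact permutation p = 0.2. In lists cut to the 27873 peaks of highest signal value, the counts were 2, 2 and 3 in wild type and 3, 2 and 3 in SE/SE, a difference of 0.333. When summits closer to another gene's end were left out, an alternative added after seeing the data, the counts were 2, 2 and 1 against 2, 5 and 7, with an exact permutation p = 0.3.

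**Figure D3:**
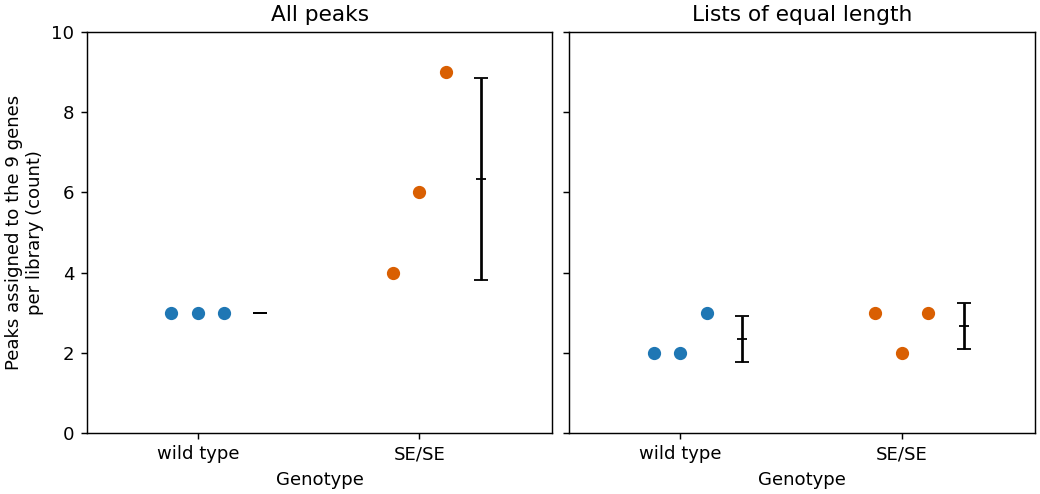
Number of peaks assigned to the 9 genes in each library, from all peaks (left) and from lists of equal length (right), points being libraries and the bars beside them mean ± SD of 3 libraries. With all peaks, the SE/SE libraries (4, 6 and 9) lie above the wild-type libraries (3 each), and with equal lists the groups overlap.

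The library peaks merged into 8 regions, 3 at Gnat1, 1 at Pde6b and 4 at Aipl1. Of these, 2 had a peak in 6 of 6 libraries, 1 at Gnat1 and 1 at the shared end of Aipl1, and 6 had one in more SE/SE than wild-type libraries, against 45.8% of all 46780 regions. None was in more wild-type libraries (0.923% of all). No region was in all SE/SE and no wild-type libraries (8.23% of all) or the reverse (0.0321%). The first of these counts rested on single libraries: without SE/SE 1 it was 3, and without wild type 1 it was 1. Leaving out a library makes the rule looser, and the 8.23% is for all 6 libraries. The counts with a library left out therefore have no share over all regions beside them.

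In the joint lists, member peaks were mostly without a peak in any library. Of the 22 in the joint wild-type list 6 (27.3%) overlapped a library peak, against 39.5% of all peaks of that list, and of the 33 in the joint SE/SE list 6 (18.2%), against 34.0%. Their median percentile by signal value was 42.8 and 35.8. In joint SE/SE, 12 of 33 (36.4%) had no overlap in joint wild type, against 22.0% of the list, and in joint wild type 0 of 22 had none in joint SE/SE, against 6.28%. There is 1 joint list a genotype, so these shares have no test.

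**Figure D4:**
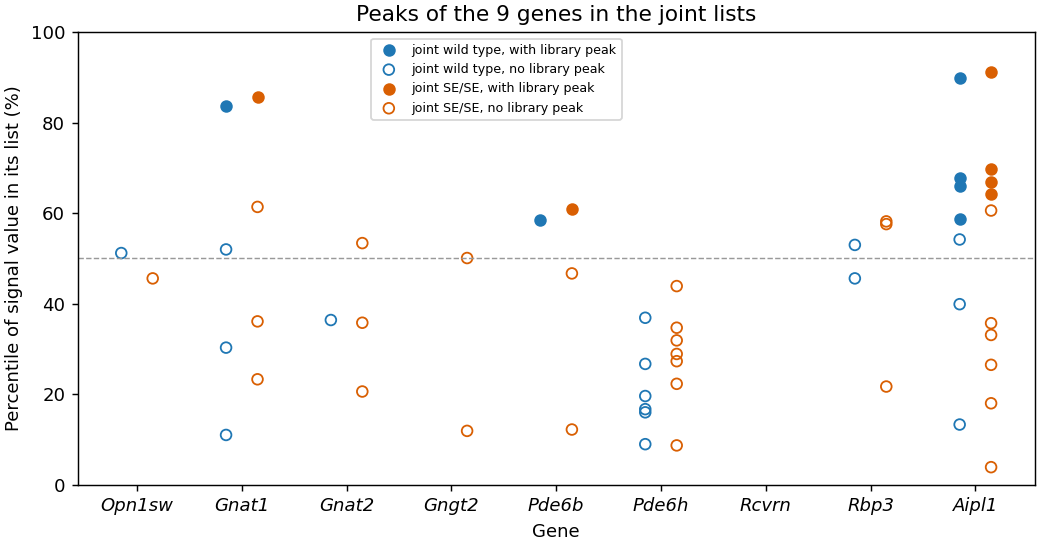
Percentile of the authors' signal value within its own joint list for every joint-list peak of the 9 genes, blue for wild type and orange for SE/SE. Filled points overlap a peak of any library and open points none, and the dashed line is the middle of the list. The highest points belong to Gnat1 and Aipl1, Pde6h lies below the line throughout, and Rcvrn has no point.

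Near gene ends and starts, single libraries held peaks for few of the 9 genes. At either gene end, in a window of 1 kb to each side, 2 members had a peak, Gnat2 and Aipl1, in each of the 6 libraries: 2 of 9 against 55.6% of all genes. The ends with a peak in 6 of 6 libraries are shared with other genes. Aipl1 also had a peak at its other end in SE/SE 2 and 3 and in both joint lists. Gnat1, Gngt2 and Rbp3 had such a peak in a joint list only, against 7.14% of all genes. Of the 6 members with a RefSeq start, 0 had a peak within 1 kb of it in any library, against 62.8% of 17491 genes. Rbp3, Aipl1 and Gnat2 had one in a joint list only (3 of 6, against 5.25%), and Opn1sw, Pde6b and Pde6h had none in any list. All 6 fall in the lower CpG classes given above, where library peaks were rare. With 3 CpG or fewer, a peak overlapped the promoter window in 6 of 6 libraries for 1.21% and in 1 to 5 for 1.34%. With 4 to 9 CpG these shares were 11.5% and 6.16%. That window is narrower than 1 kb to each side. Among neighbours within 5 kb, the end next to the member had a peak in 6 of 6 libraries for Ampd2 and Gm12500 beside Gnat2 and for Pimreg beside Aipl1, and in 2 wild-type and 3 SE/SE libraries for Atp5k beside Pde6b. The near ends of Calu (4 bp from Opn1sw), Sema3f (1865 bp from Gnat1) and Zfp488 (2851 bp from Rbp3) had no peak in any list, while their far ends had one in 6 of 6 libraries.

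The other genes of phototransduction also fell into all of these classes. Of 24 such genes, 7 had an assigned peak in 6 of 6 libraries, 5 in some, 10 in joint lists only and 2, Gngt1 and Pde6g, in none. Gene ends in this 1 kb window had a peak for 5, 5 and 4 of them in wild type 1, 2 and 3 and for 6 in each SE/SE library. The groups did not overlap (4.67 ± 0.577 against 6 ± 0, SD, n = 3 each), a difference of 1.33 at an exact permutation p = 0.1. The SE/SE lists were longer. In lists cut to equal length the counts were 4, 4 and 4 against 5, 6 and 6. These did not overlap either, with a difference of 1.67 at an exact permutation p = 0.1. No share over all genes is given for lists of that length, so this difference has no background beside it. Over all 46780 regions, which come from full lists and are not gene ends, 45.8% had a peak in more SE/SE than wild-type libraries and 0.923% the reverse. With full lists, within 1 kb of the RefSeq start alone, known for 16, the counts were 3, 4 and 3 against 3 in each SE/SE library, and the direction turned.

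Gnb3, the cone transducin beta subunit, and Guca1b, a calcium sensor of guanylate cyclase, were the genes of that list with a gene-end peak in part of the libraries. Gnb3 had one in 0 wild-type and 3 SE/SE libraries, with highest signal values of 29.4, 319 and 278 in SE/SE 1, 2 and 3, and 3605 (wild type) and 5330 (SE/SE) in the joint lists. Guca1b had one in wild type 1 and 2, at 26.8 and 53.8, and in SE/SE 1, 2 and 3, at 100, 215 and 153. Of all 46780 regions, which are not gene ends, 8.23% had a peak in 3 SE/SE and 0 wild-type libraries. A peak in more SE/SE than wild-type libraries was found for 45.8% of them. The genes of that list with a gene-end peak in 6 of 6 libraries were Gnb1, Slc24a2, Rgs9 and Rgs9bp, whose products are not all limited to photoreceptors. Rgs9bp had an assigned peak in only 1 wild-type and 3 SE/SE libraries, so its gene-end peak was not assigned to it in every library. Of the genes with a gene-end peak in joint lists only, Gucy2e, Cngb3, Guca1a and Cnga3 had the highest joint signal values of an assigned peak, 6518, 2172, 1496 and 579. Such a peak can lie away from the gene ends: Gucy2e and Cngb3 had an assigned peak in 6 of 6 libraries. Guca1a had one in 1 wild-type and 3 SE/SE libraries.

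Outer segment and photoreceptor fate genes were counted in the same way. Of 16 outer segment genes, 10 had an assigned peak in 6 of 6 libraries, 2 in some and 4 in joint lists only. At gene ends, Prom1, Pde6d, Rom1 and Abca4 led those in 6 of 6, with highest joint signal values of an assigned peak of 16829, 10272, 9629 and 6551. Rom1 had an assigned peak in only 1 wild-type and 2 SE/SE libraries, so its gene-end peak was not assigned to it in every library. Impg1, Crb1, Prph2 and Rdh12 led those with a gene-end peak in joint lists only, with 9292, 6818, 1594 and 702. These values too are of any assigned peak, and Impg1, Crb1 and Prph2 had an assigned peak in 6 of 6 libraries. Of 14 fate genes, 12 had an assigned peak in 6 of 6 libraries and 2 in some. Thrb, Casz1, Neurod1 and Onecut1 led those with a gene-end peak in 6 of 6, at 17427, 15250, 15052 and 12979. Otx2 and Nr2e3 had a gene-end peak in joint lists only. Crx had one in SE/SE 2 and 3, at 34.9 and 80.0, and at the same place in both joint lists, at 444 (wild type) and 1177 (SE/SE). A stronger joint peak, of 3128 (wild type) and 4624 (SE/SE), also reached into the window. Its summit was nearer to Crxos, at 1085 and 1077 bp, than to the end of Crx, at 1577 and 1585 bp. Nrl, the rod determinant, had a gene-end peak in wild type 1 and 2, at 30.3 and 33.9, and in SE/SE 1, 2 and 3, at 141, 177 and 142. All of these lay at the lower-coordinate end of Nrl. The other end had a peak in the joint lists only, at 127 (wild type) and 654 (SE/SE). Over all regions, 45.8% had a peak in more SE/SE than wild-type libraries. Of the 24370 regions with a peak in 6 of 6 libraries, 89.0% had a higher signal value in every SE/SE than in every wild-type library. Differences between the lists were not tested.

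**Figure D5:**
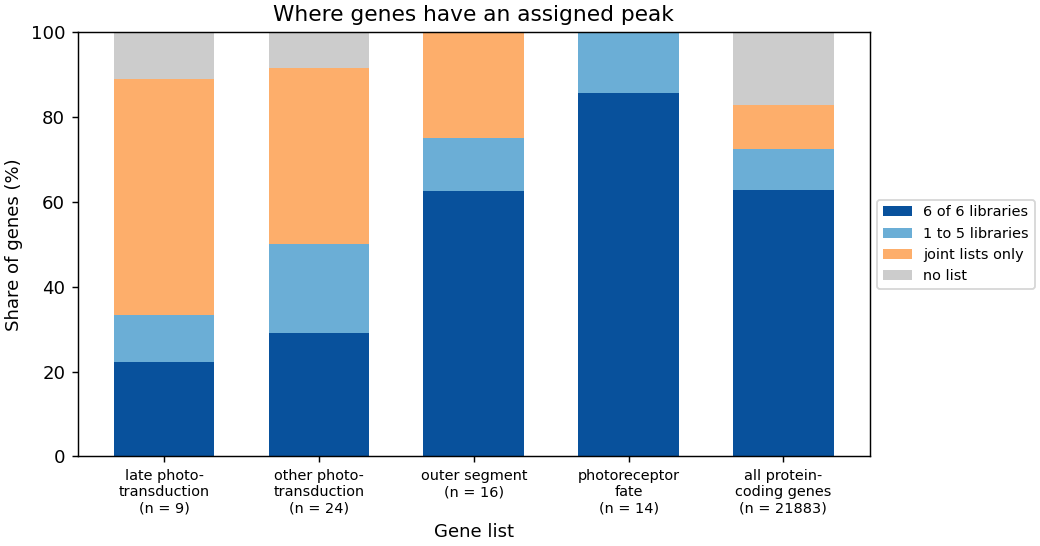
Share of genes (%) with an assigned peak in 6 of 6 libraries, in 1 to 5, in joint lists only or in no list, for the 9 late phototransduction genes, 3 other gene lists and all protein-coding genes. Joint lists only is the largest class of the 9 genes (5 of 9), and 6 of 6 libraries that of the fate genes (12 of 14).

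Likeness was measured as the number of the 8 lists in which presence of a gene-end peak matched, over 54 listed genes. Opn1sw, Pde6b, Pde6h and Rcvrn had no such peak in any list and matched 14 genes in 8 of 8, among them Opn1mw, Gnb5 and Gngt1. Gnat1 and Gngt2, with one in the joint SE/SE list alone, matched Arr3, Impg1 and Nr2e3. Rbp3, with one in both joint lists, matched 12, among them Cnga1, Cnga3, Cngb3 and Grk1. Gnat2 and Aipl1, with one in every list, matched 21, among them Gnb1, Rgs9, Rgs9bp and Slc24a2. For both members, the end with a peak in every list is shared with other genes, and Gnat2 had 0 assigned peaks in each library.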

How the data were processed

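The 9 genes and the gene lists were chosen with earlier results of these data known. Per the submitters' processing notes, Genrich 0.5, limma, bedtools 2.27.0, BWA and cutadapt were used with the build GRCm38 (mm10), with no role given for any; trimming, the Tn5 shift, duplicates and how the joint lists were made are not given in the sources used here. Tn5 was applied to some 100000 cells and 50000 cell equivalents were amplified, per the labels. The deposited lists are in narrowPeak form. The authors' deposited columns used here are a signal value, a score and a −log10 q-value, which was only read. In each list the deposited score was 1000 times the signal value over the peak width, to within 1 and capped at 1000, so signal grows with width. Signal served to describe peaks and rank them within a list, with no scaling between libraries. No counts were analysed, so depth is unknown and no counting interval is given.

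Peaks on chromosomes 1 to 19, X and Y were assigned by summit to the protein-coding gene (RefSeq, GRCm38.p6) that holds the summit and to the gene with the nearest end within 100 kb, which can be different genes. The table has no strand, so distances are to gene ends; RefSeq starts were used where the promoter table gives them (6 of 9 genes). Library peaks sharing 1 bp were merged into regions. Values per library were compared with a two-sided exact permutation test of the 20 assignments, whose smallest p is 0.1. The calculations used Python 3.11.15, numpy 2.4.6, pandas 2.3.3 and scipy 1.17.1 and were tested on simulated data. Alternatives covered list length, signal threshold, gene set, distance, peak position, window, overlap, pairing and each library left out.

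The text names the 9 genes, their protein-coding neighbours with ends within 5 kb, and genes of the other phototransduction, outer segment and fate lists. Of these lists it takes all genes with a gene-end peak in 1 to 5 libraries and up to 4 a list, by highest joint signal value of an assigned peak, of those with one in 6 libraries or in joint lists only. It also takes up to 4 genes per member with the same gene-end pattern over the 8 lists. Genes nearest to a described peak (Ccdc136, Arhgdib, Glp2r and noncoding genes) and Pde6g were named after their values were seen.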

Additional observations from a re-analysis of the deposited data

How the results depend on the processing

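Of 100 values under alternatives, 95 stayed in direction and call or within the spread between replicates, 4 moved and 1 reversed. No comparison of 3 against 3 could pass 0.05, so the call could not change and the 95 are no measure of robustness. They include lists of equal length, where the difference in peaks of the 9 genes was 0.333 (3.33 with all peaks). The number of the 9 genes with a gene-end peak differed by 0.333 between genotypes with a window of 2.5 kb and 0.333 with summits in the window, against 0; for other phototransduction genes the difference was -0.333 at RefSeq starts, against 1.33. The cause was not tested. Leaving out 1 library each gave 0 to 3 regions with a peak in all SE/SE and no wild-type libraries. The count was 3 without SE/SE 1 and 1 without wild type 1, with no share over all regions given for these looser rules. Without SE/SE 3 the difference in peaks per library was 2 (3.33 with all) and per 10000 peaks 0.248 (0.522 with all), and 2 of 9 genes had a library peak instead of 3. The difference in peaks was 1 with signal values of at least 100 and 2 with all RefSeq genes. With a replicate block the difference was 3.33 for peaks of the 9 genes, 0.522 per 10000 peaks and 1.33 for other phototransduction genes, each at an exact sign-flip p = 0.25, the smallest 3 pairs allow. The labels tie the libraries to individual animals. Deviations of same-numbered libraries correlated at 0.007, -0.029 and 0.161 over 22410 regions. With 3 libraries a genotype these correlations depend on each other, so they cannot decide whether the numbers mark pairs. Wild type 2, SE/SE 1 and SE/SE 2 correlated best with another number. Since depth is unknown, absence from a list does not show by itself that a place is closed.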
